A study of Mus musculus with 28 samples.

Results

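Aminoacyl-tRNA synthetases are the enzymes that join each amino acid to its transfer RNA, and the RNA-seq data give the levels of their messages in satellite cells, which repair skeletal muscle, of the mouse. The 36 synthetase genes were chosen by symbol from the 22552 genes listed in each of 4 deposited tables, and comprised 20 genes for cytoplasmic enzymes and 16 for mitochondrial ones. Cells came from SIRT1mKO mice (KO), in which Cre from a Pax7 knock-in allele deletes floxed exon 4 of Sirt1, the gene of an NAD-dependent deacetylase, and from WT mice, with C57Bl/6 as the labelled strain. Cells had been kept in proliferating culture (Cul, Ham's F-10 medium with 12.5 ng/mL bFGF and 20% fetal bovine serum), in medium with 2% horse serum for 24 hours to differentiate (Diff), or were taken straight from FACS isolation, which the labels call quiescent (FI). Cre acts where Pax7 is or was expressed, and the labels do not say how many animals gave each library. The polyA RNA-seq libraries numbered 18 of the 28 samples; the other 10, ChIP and input samples, were not analysed here.

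Synthetases divide their work by place. One set serves the ribosomes of the cytoplasm, and a separate set, encoded in the nucleus and imported, serves the ribosomes inside mitochondria; Gars and Kars each supply both places. Several cytoplasmic enzymes sit in a multisynthetase complex held together by the scaffold proteins Aimp1, Aimp2 and Eef1e1, and the transcription factor ATF4 induces many cytoplasmic synthetase genes, with genes of amino acid uptake and synthesis, when amino acids run short.

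The tables compared KO_FI with WT_FI (3 libraries against 3), KO_Cul with WT_Cul (2 against 2), KO_Diff with WT_Diff (2 against 2), and, in a table of WT states, WT_Cul with WT_FI (2 against 2). Libraries are named by group and by their index in the table. They held 24254119 to 82825550 fragments. Levels are CPM, fragments per 1000000 of the scaled library size, and compare libraries within a table. Sirt1 had 63.4, 37.6 and 44.3 CPM in KO_FI, against 81.4, 50.6 and 47.4 CPM in WT_FI (log2 -0.30, SE 0.28), 33.8 and 46.9 CPM in KO_Cul, against 62.2 and 66.8 CPM in WT_Cul (log2 -0.68, SE 0.24), and 41.4 and 28.8 CPM in KO_Diff, against 52.1 and 28.2 CPM in WT_Diff (log2 -0.19, SE 0.48); no difference passed the test, and a count over the whole gene checks the deletion of 1 exon only in part.

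Several libraries stood apart in cell type markers. In the table of WT states, Pax7, a transcription factor that defines satellite cells, had 19.7 and 70.6 CPM in WT_Cul, against 138 and 117 CPM in WT_FI, while the WT_FI libraries of the FI table had 832 to 1059 CPM. The 9 satellite cell markers, Pax7 included, summed to 3843 and 1967 CPM in WT_Cul, against 3380 and 3089 CPM in WT_FI, which overlapped. In the WT_FI libraries of the FI table they summed to 6794 to 8934 CPM. The 8 fibroblast markers, none at 0, summed to 501 and 1209 CPM in WT_Cul, against 23727 and 17078 CPM in WT_FI, and the 8 markers of pericytes and smooth muscle, none at 0, to 2151 and 2191 CPM in WT_Cul, against 22543 and 30908 CPM in WT_FI. In the WT_FI libraries of the FI table the same lists summed to 2583 to 4745 CPM and 3497 to 8453 CPM. Endothelial markers summed to 35.7 and 75.0 CPM in WT_Cul, against 289 and 334 CPM in WT_FI, and those of macrophages and other leukocytes to 15.5 and 25.4 CPM in WT_Cul, against 241 and 193 CPM in WT_FI, in the table of WT states. In the WT_FI libraries of the FI table these lists summed to 169 to 579 CPM and 146 to 352 CPM, which overlapped the WT_FI values of the table of WT states. In the differentiation table, the 8 markers of differentiated muscle summed to 341 and 23645 CPM in KO_Diff, against 137 and 10982 CPM in WT_Diff; both index 0 libraries thus held little of the muscle programme that their label names. In the table of WT states these 8 markers summed to 3368 and 85.3 CPM in WT_Cul, against 483 and 215 CPM in WT_FI. WT_Cul index 0 there, labelled as proliferating, thus held more of this RNA than either index 0 library of the differentiation table. The differentiation factor Myog, 1 of the 8, had 807 and 9.05 CPM in WT_Cul, against 230.5 and 13.3 CPM in WT_FI in the table of WT states. What these features contribute to a synthetase result was not tested, except where a value without the library is given.

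Cytoplasmic synthetase messages were more abundant in cultured WT cells than in freshly isolated ones. In the table of WT states, 18 of the 20 cytoplasmic genes were higher in WT_Cul and none was lower, by edgeR's quasi-likelihood test at an adjusted p of 0.05. Over all 14680 genes tested, 12.6% were higher, 16.0% lower and 28.6% called in either direction. The median log2 difference of the cytoplasmic genes was 2.22 (1.12 to 2.87), a 4.65-fold higher level, beside 0.06 for all genes. Of the mitochondrial enzymes, 5 of 16 were higher (Yars2, Rars2, Mars2, Tars2 and Ears2) and none was lower, with a median of 1.09 and a range from -0.08 (Fars2) to 2.87 (Yars2). At an unadjusted p of 0.05 the counts were 20 of 20 and 8 of 16, against 44.3% of all genes. Every WT_Cul library lay above every WT_FI library for 20 of 20 cytoplasmic and 13 of 16 mitochondrial genes; 35.5% of all genes did so, 35.4% lay apart the other way and 70.9% either way. The number of calls rests on both fresh libraries: 23 of 36 members passed with all libraries, 1 without WT_FI index 0 (2091 genes in all) and 2 without WT_FI index 1 (1948 genes in all), while the estimate stayed above 0 for 35 of 36 members in each of these fits. Calls given by gene, those of related lists included, are from the fit with all libraries. In bulk RNA, fewer cells of a type and less RNA per cell cannot be told apart.

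**Figure D1:**
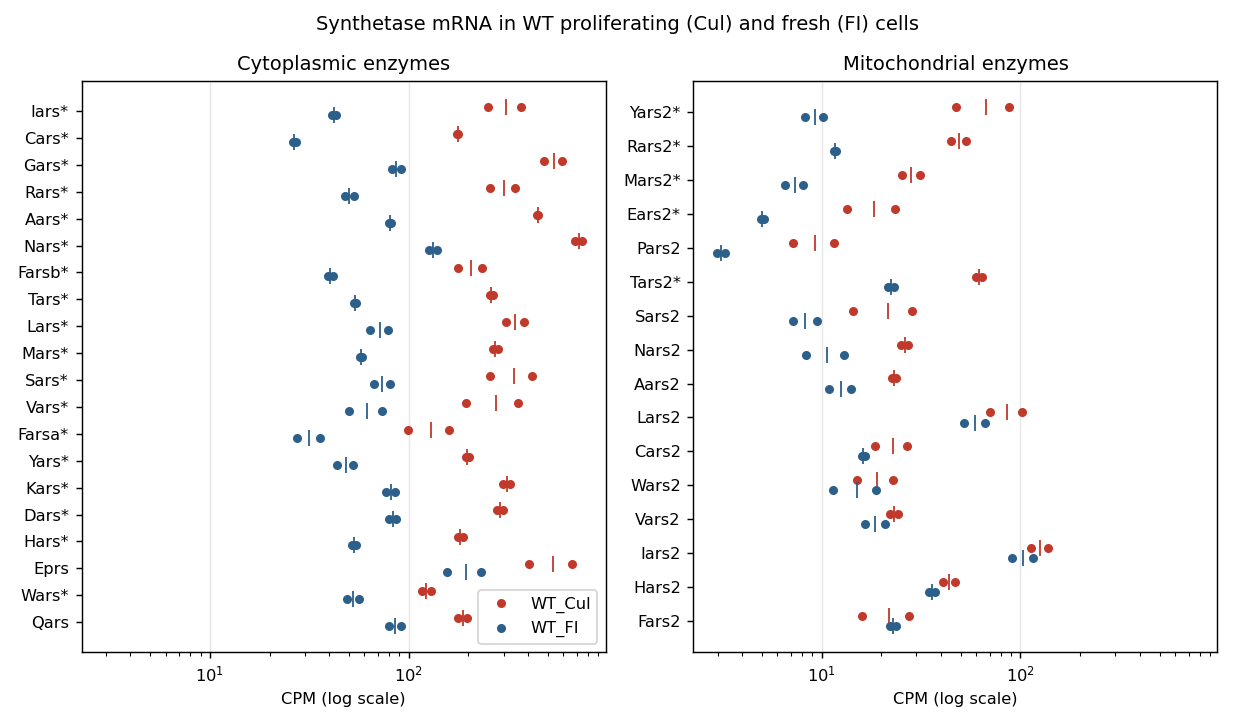
CPM of each of the 36 synthetase genes in the libraries of WT_Cul (red points) and WT_FI (blue points) of the table of WT states, on a log axis, with each group's mean as a tick and an asterisk on genes that passed edgeR's test. All 20 cytoplasmic genes have both WT_Cul points to the right of both WT_FI points; 3 of the 16 mitochondrial genes overlap.

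The 8 members with the smallest p were all cytoplasmic. Cars, which charges the cysteine transfer RNA, had 178 and 175 CPM in WT_Cul, against 26.1 and 27.2 CPM in WT_FI (log2 2.72, SE 0.33, adjusted p 0.0118). Libraries of one state lay close together and the states far apart. Iars, the isoleucine enzyme, had 249.7 and 366 CPM in WT_Cul, against 41.2 and 43.0 CPM in WT_FI (log2 2.87, SE 0.39, adjusted p 0.0137). Gars, the glycine enzyme, had 590.4 and 481 CPM in WT_Cul, against 82.2 and 91.2 CPM in WT_FI (log2 2.63, SE 0.38, adjusted p 0.0142). For both, the cultured libraries differed from each other more than the fresh ones did, and the groups did not overlap. Aars, the alanine enzyme, had 440.4 and 449 CPM in WT_Cul, against 81.9 and 79.6 CPM in WT_FI (log2 2.46, SE 0.35, adjusted p 0.0142). Rars, the arginine enzyme, had 345 and 258 CPM in WT_Cul, against 52.9 and 47.8 CPM in WT_FI (log2 2.58, SE 0.37, adjusted p 0.0143). The other members of the 8 are the enzymes of threonine (Tars), methionine (Mars) and asparagine (Nars), and in each the groups lay apart in the same way. Tars had 255 and 265 CPM in WT_Cul, against 54.3 and 52.9 CPM in WT_FI (log2 2.28, SE 0.34, adjusted p 0.0146). Mars had 265 and 282 CPM in WT_Cul, against 56.8 and 58.6 CPM in WT_FI (log2 2.25, SE 0.34, adjusted p 0.0149). Nars had 742 and 689 CPM in WT_Cul, against 126 and 139 CPM in WT_FI (log2 2.43, SE 0.37, adjusted p 0.0149). Farsb, the beta subunit of the phenylalanine enzyme, followed with a log2 difference of 2.35.

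Of the other 11 cytoplasmic genes, 9 passed. They were Lars (leucine, log2 2.26), Sars (serine, 2.19), Vars (valine, 2.16), Yars (tyrosine, 2.04), Farsa (alpha subunit for phenylalanine, 2.04), Kars, Dars (aspartate, 1.80), Hars (histidine, 1.78) and Wars. Kars, the lysine enzyme, had 325 and 299.9 CPM in WT_Cul, against 85.1 and 77.1 CPM in WT_FI (log2 1.95, SE 0.34, adjusted p 0.0187). Wars, the tryptophan enzyme, had 117 and 129 CPM in WT_Cul, against 56.1 and 49.2 CPM in WT_FI (log2 1.22, SE 0.32, adjusted p 0.0439). The fresh level of Wars was nearer to its cultured level than that of Kars, and neither gene's groups overlapped. Eprs, a fused enzyme for glutamate and proline, had 405 and 662 CPM in WT_Cul, against 157 and 230.3 CPM in WT_FI and did not pass (log2 1.46, SE 0.45, adjusted p 0.0638). Qars, the glutamine enzyme, had 198 and 176 CPM in WT_Cul, against 79.8 and 91.7 CPM in WT_FI and did not pass either (log2 1.12, SE 0.33, adjusted p 0.0577). In both, every cultured library was nevertheless above every fresh one.

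Of the mitochondrial enzymes, Yars2, which charges mitochondrial tyrosine transfer RNA, had 87.1 and 47.5 CPM in WT_Cul, against 10.2 and 8.26 CPM in WT_FI (log2 2.87, SE 0.46, adjusted p 0.0164). Its cultured libraries differed from each other but both lay well above the fresh ones. Rars2 (arginine, log2 2.06), Mars2 (methionine, 1.95), Tars2 (threonine, 1.47) and Ears2, which loads glutamate on the glutamate and glutamine transfer RNAs (1.87), also passed. Ears2 had 23.5 and 13.4 CPM in WT_Cul, against 4.94 and 5.13 CPM in WT_FI (adjusted p 0.0400); its higher level is uncertain, since the groups overlapped in the libraries of the Cul and FI tables. Pars2 (proline, 1.57), Sars2 (serine, 1.37), Nars2 (asparagine, 1.29) and Aars2 (alanine, 0.88) did not pass, nor did Lars2 (leucine, 0.54), Cars2 (cysteine, 0.49), Vars2 (valine, 0.31), Hars2 (histidine, 0.28), Iars2 (isoleucine, 0.29), Wars2 (tryptophan) and Fars2 (phenylalanine, -0.08). Wars2 had 15.1 and 22.8 CPM in WT_Cul, against 11.4 and 18.7 CPM in WT_FI (log2 0.33, SE 0.46, adjusted p 0.619). The groups of Wars2, Iars2 and Fars2 overlapped.

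Promoters bear on genes that move together, and sequences from 250 bases before to 50 after the start (RefSeq, build GRCm38.p6; the deposited tables use mm9) were matched for 27 of the 36 members. Among 5 motifs searched on both strands, all chosen with results of these data known, TGATGNAA, a core of the element that ATF4 binds with its partners, was in 5 of 13 cytoplasmic promoters (Iars, Gars, Aars, Tars and Yars), 0 of 14 mitochondrial ones, 9 of 26 of the amino acid response genes and 3.91% of 32544 promoters. TGATGNAAN, 1 open base longer, gave the same member counts and 3.90% of all. Its added base matches any letter, so it could hardly give another count and is no separate search. TGATGCAA, which TGATGNAA includes, was in 4 of 13 cytoplasmic, 0 of 14 mitochondrial, 7 of 26 response and 0.867% of all promoters. CACGTG, an E-box, was in 4 of 13 (Aars, Farsb, Iars and Tars), 1 of 14 (Ears2), 2 of 26 and 7.17%. GCCATCTTG, the letters of a YY1 motif, was in 0 of 13, 2 of 14 (Wars2 and Yars2), 0 of 26 and 1.25%. A match describes letters and is no evidence of binding. The 5 promoters with TGATGNAA are printed along the direction of transcription with the match, on either strand, in capitals, and those of Mars and Farsb as enzymes among the 9 with the smallest p whose windows lack it. They lie at chr13:49681880-49682179 (plus strand), chr6:55037751-55038050 (plus strand), chr8:111033592-111033891 (plus strand), chr15:11399609-11399908 (minus strand), chr4:129189653-129189952 (plus strand), chr10:127311737-127312036 (minus strand) and chr1:78488848-78489147 (minus strand).
Iars promoter: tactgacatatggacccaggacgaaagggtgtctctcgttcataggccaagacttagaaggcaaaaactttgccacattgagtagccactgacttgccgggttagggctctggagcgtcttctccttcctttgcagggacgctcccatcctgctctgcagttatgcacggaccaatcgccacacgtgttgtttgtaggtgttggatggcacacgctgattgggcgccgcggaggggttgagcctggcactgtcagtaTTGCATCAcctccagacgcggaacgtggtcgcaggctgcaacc
Gars promoter: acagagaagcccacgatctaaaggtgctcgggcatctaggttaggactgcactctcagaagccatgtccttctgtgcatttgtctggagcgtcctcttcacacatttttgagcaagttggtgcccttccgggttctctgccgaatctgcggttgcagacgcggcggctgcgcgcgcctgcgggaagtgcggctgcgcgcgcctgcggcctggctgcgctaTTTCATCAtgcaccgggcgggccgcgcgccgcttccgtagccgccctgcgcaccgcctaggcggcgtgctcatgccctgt
Aars promoter: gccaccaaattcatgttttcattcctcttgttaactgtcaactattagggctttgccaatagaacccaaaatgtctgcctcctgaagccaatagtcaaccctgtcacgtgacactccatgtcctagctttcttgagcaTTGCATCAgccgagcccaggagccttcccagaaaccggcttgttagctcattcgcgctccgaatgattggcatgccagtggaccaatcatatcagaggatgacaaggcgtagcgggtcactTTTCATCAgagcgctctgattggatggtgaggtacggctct
Tars promoter: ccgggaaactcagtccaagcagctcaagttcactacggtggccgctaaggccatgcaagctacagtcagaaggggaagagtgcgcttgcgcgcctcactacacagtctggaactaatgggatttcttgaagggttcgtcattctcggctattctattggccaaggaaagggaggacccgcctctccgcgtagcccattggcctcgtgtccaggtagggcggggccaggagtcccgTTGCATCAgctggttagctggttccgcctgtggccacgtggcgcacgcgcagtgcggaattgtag
Yars promoter: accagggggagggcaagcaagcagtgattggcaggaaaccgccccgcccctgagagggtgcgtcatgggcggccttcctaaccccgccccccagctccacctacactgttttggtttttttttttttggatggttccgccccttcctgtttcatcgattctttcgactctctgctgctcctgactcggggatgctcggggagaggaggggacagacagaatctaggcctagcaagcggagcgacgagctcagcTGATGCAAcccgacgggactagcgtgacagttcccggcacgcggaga
Mars promoter: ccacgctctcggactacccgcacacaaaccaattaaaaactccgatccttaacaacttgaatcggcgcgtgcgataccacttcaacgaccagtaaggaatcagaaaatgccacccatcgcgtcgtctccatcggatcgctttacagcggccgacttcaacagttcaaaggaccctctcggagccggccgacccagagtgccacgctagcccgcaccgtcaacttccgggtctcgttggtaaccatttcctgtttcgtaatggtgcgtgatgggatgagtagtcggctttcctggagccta
Farsb promoter: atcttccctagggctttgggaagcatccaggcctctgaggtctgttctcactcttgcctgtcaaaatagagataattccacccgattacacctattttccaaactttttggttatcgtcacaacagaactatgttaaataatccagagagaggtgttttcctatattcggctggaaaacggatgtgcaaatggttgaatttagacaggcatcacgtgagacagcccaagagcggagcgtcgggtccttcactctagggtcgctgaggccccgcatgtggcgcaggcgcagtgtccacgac
Counted from the first transcribed base, the left edge of the match lay at -30 in Gars and -15 in Tars, 7 bases downstream in Iars and 3 in Yars, and at both -112 and 9 in Aars.

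The same states could be set side by side with other libraries, those of the KO comparisons, whose tables were processed apart, so these values carry no test. WT_Cul of the Cul table had each of the 20 cytoplasmic enzymes above every WT_FI library of the FI table, where 30.9% of 13896 genes did so. The median log2 ratio was 1.87, from 0.47 (Qars) to 2.88 (Gars), beside -0.33 for all genes. These WT_FI libraries are the ones with more Pax7 and less fibroblast RNA, while their endothelial and leukocyte markers overlapped those of WT_FI in the table of WT states. By gene the sizes differed from those in the table of WT states: Gars had 2.88 here and 2.63 there, but Dars 0.74 and 1.80, Farsa 0.88 and 2.04, and Qars 0.47 and 1.12. In KO cells, KO_Cul over KO_FI gave a median of 2.04 with 20 of 20 above, where 32.1% of genes were. The mitochondrial medians were 0.73 in KO and 0.61 in WT. Of the 5 mitochondrial enzymes called in the table of WT states, Yars2 (1.72), Mars2 (1.63), Rars2 (0.96) and Tars2 (0.84) were higher in every WT_Cul library here as well. Ears2 was not: it had 17.8 and 19.0 CPM in WT_Cul, against 14.5, 21.3 and 14.2 CPM in WT_FI, which overlapped (0.14). Diff over Cul gave cytoplasmic medians of -0.20 in KO and -0.13 in WT, beside 0.07 in KO and 0.06 in WT for all genes. These values average both Diff indexes. The summed cytoplasmic level of index 1 was 6584 CPM in KO_Diff, against 6551 and 7127 CPM in KO_Cul. In WT_Diff it was 6746 CPM, against 6512 and 6757 CPM in WT_Cul. Index 0, with little of the muscle programme, lay lower, at 5249 CPM in KO_Diff and 5145 CPM in WT_Diff. In both genotypes 0 of the 20 were higher in every Diff library, where 27.8% of 12387 genes in KO and 26.5% of 12326 genes in WT were. Lower in every Diff library were Eprs, Iars, Kars, Lars, Nars, Tars and Vars in WT, and Farsa, Hars, Kars, Mars and Qars in KO. The share of all genes lower in every Diff library was not computed.

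**Figure D2:**
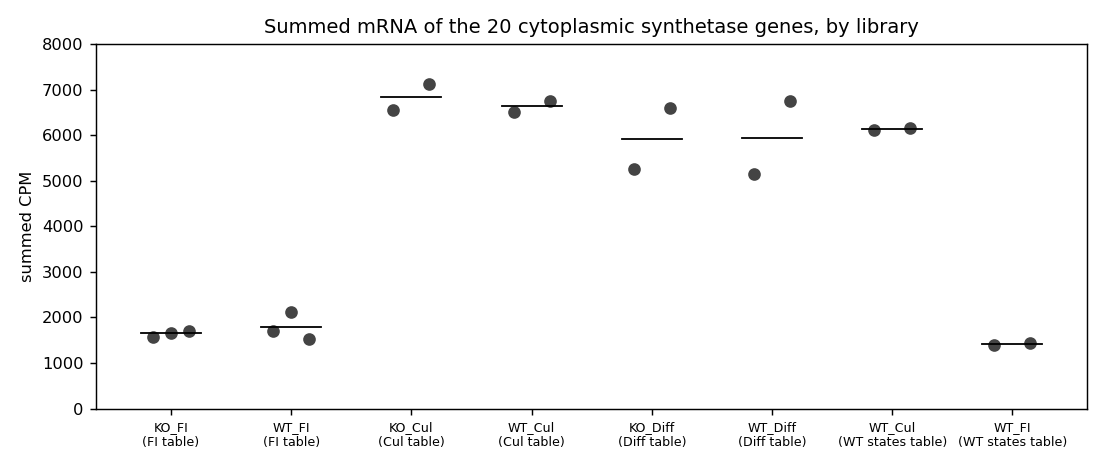
Summed CPM of the 20 cytoplasmic synthetase genes in each library (points), with the group mean as a bar; tables were processed apart, so levels compare strictly only within a table. Cultured and differentiating libraries lie between 5145 and 7127 CPM and fresh ones between 1385 and 2121 CPM.

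Summed over the 20 cytoplasmic genes, the level was 6111 and 6149 CPM in WT_Cul, against 1385 and 1428 CPM in WT_FI. The 15 mitochondrial genes other than Lars2 summed to 595 and 527 CPM in WT_Cul, against 290.4 and 314 CPM in WT_FI, which was 8.87% and 7.90% of the synthetase total without Lars2 in WT_Cul, against 17.3% and 18.04% in WT_FI. In FPKM, which divides by gene length, Nars was the highest member in both states, at 264 ± 17.3 FPKM in WT_Cul and 50.1 ± 3.69 FPKM in WT_FI (SD, n = 2 each). Pars2 was the lowest, at 4.06 ± 1.47 FPKM in WT_Cul and 1.32 ± 0.0594 FPKM in WT_FI. Of the 35 neighbouring pairs in the order of levels, 28 overlapped in WT_Cul and 26 in WT_FI, so most neighbours did not differ beyond their spread. For the 13 amino acids with a gene of each kind, the ratio of cytoplasmic to mitochondrial FPKM had a median of 6.67 in WT_Cul and 3.43 in WT_FI, and was higher in WT_Cul for 12. Iars to Iars2 was 1.93 in WT_Cul and 0.33 in WT_FI, and the exception, Yars to Yars2, was 1.65 in WT_Cul and 2.71 in WT_FI.

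Genes around the synthetases, in lists chosen with earlier results known, were partly higher in the same comparison, in which 12.6% of all genes were called higher and 16.0% lower. Enzymes of the multisynthetase complex passed in 6 of 8 cases (median log2 2.10) and the cytoplasmic enzymes outside it in 12 of 12 (2.24); whether these shares differ was not tested. Of the complex scaffolds, Eef1e1 had 191 and 107 CPM in WT_Cul, against 14.4 and 11.7 CPM in WT_FI (log2 3.52, SE 0.45, adjusted p 0.0130). Aimp2 had 139.6 and 63.3 CPM in WT_Cul, against 22.2 and 14.4 CPM in WT_FI (log2 2.47, SE 0.53, adjusted p 0.0282). Both passed without overlap, and Aimp1 did not pass (log2 1.54, SE 0.45, adjusted p 0.0571). The 13 cytoplasmic enzymes reported elsewhere as ATF4 targets passed in 12 cases (median 2.26) and the 7 others in 6 (1.95). Of 31 amino acid response genes, 16 were higher and 0 lower, with a median of 1.88 (-0.95 to 5.46). Mthfd2, a mitochondrial folate enzyme, had 278 and 225 CPM in WT_Cul, against 13.9 and 9.33 CPM in WT_FI (log2 4.43, SE 0.43, adjusted p 0.00962). Asns, asparagine synthetase, had 404 and 256 CPM in WT_Cul, against 14.3 and 18.8 CPM in WT_FI (log2 4.32, SE 0.46, adjusted p 0.0103). These fresh levels were a small part of the cultured ones. Slc7a11, a cystine transporter, had 98.8 and 110.3 CPM in WT_Cul, against 6.74 and 4.02 CPM in WT_FI (log2 4.28). Slc7a5, a transporter of large neutral amino acids, had 397 and 398 CPM in WT_Cul, against 51.6 and 39.2 CPM in WT_FI (log2 3.13). Atf4 itself did not pass (log2 1.18, SE 0.48, adjusted p 0.119), nor did the stress factor Ddit3 (log2 0.07, adjusted p 0.931).

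Other translation genes passed in smaller numbers, to be read against the 12.6% of all genes called higher. Of 5 genes of editing and transfer RNA ends, 2 were higher and 0 lower: Elac2, which trims 3' ends, had 50.3 and 86.7 CPM in WT_Cul, against 21.6 and 22.3 CPM in WT_FI (log2 1.64), and Trnt1, which adds the CCA end, had 64.6 and 90.4 CPM in WT_Cul, against 28.8 and 32.8 CPM in WT_FI (log2 1.33). Of 7 cytoplasmic elongation genes, 2 were higher and 0 lower, Eef1b2 (log2 2.33) and Eef1g (log2 2.60), both subunits of the exchange factor of eEF1A. Eef1g is uncertain: it had 196 and 82.0 CPM in WT_Cul, against 29.6 and 16.2 CPM in WT_FI in this table, but 1850 and 1461 CPM in WT_Cul of the Cul table, and 55.6 CPM in index 0 but 1096 and 600.2 CPM in the other WT_FI libraries of the FI table. Of 17 mitochondrial translation factors, 3 were higher and 0 lower, a share near that of all genes: Gfm1, an elongation factor, had 129 and 145 CPM in WT_Cul, against 42.4 and 50.6 CPM in WT_FI (log2 1.56), and Tsfm and Tufm had log2 differences of 1.80 and 2.00, Tufm at a mean of 12.3 CPM in WT_Cul and 3.08 CPM in WT_FI.

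**Figure D3:**
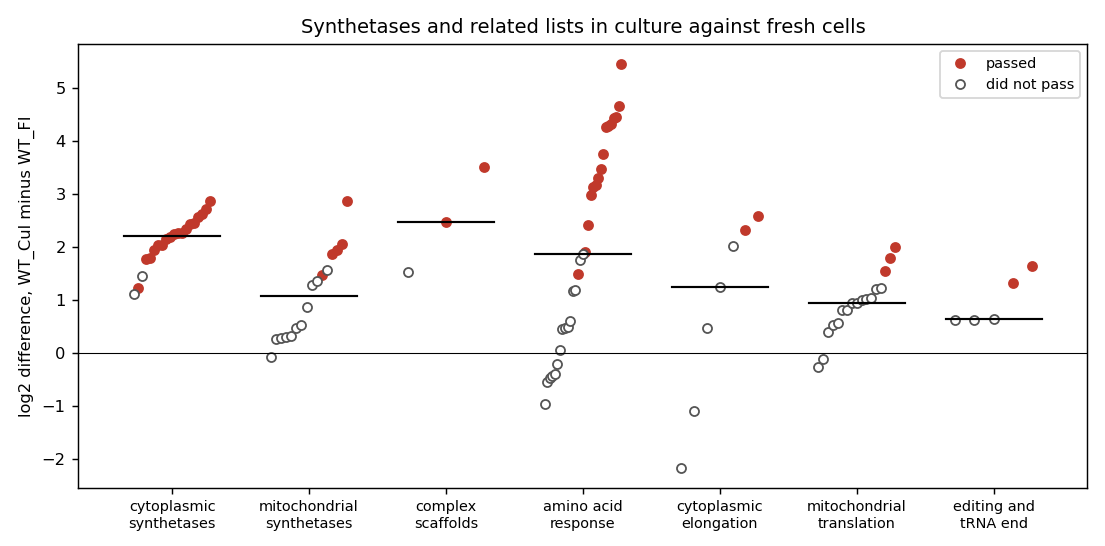
Log2 difference of WT_Cul minus WT_FI for the genes of each list (points), with the list median as a bar; filled points passed edgeR's test and open points did not. Cytoplasmic synthetases have a median of 2.22, the amino acid response genes 1.88 and the mitochondrial synthetases 1.09.

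No synthetase passed the test between KO and WT in any state. In freshly isolated cells, 0 of 36 members and 0 of 15146 genes (0%) passed edgeR's test in KO_FI against WT_FI; at an unadjusted p of 0.05 there were 0 members and 621 genes (4.10%), and DESeq2 called 117 genes and 0 members. The cytoplasmic median was -0.11, with 20 of 20 estimates below 0 (the lowest -0.23, Gars), and the mitochondrial median -0.03, beside -0.03 for all genes. The 95% intervals of 35 members lay within 1 log2 unit of 0. The direction of the cytoplasmic median rests on WT_FI index 1, in which these genes summed to 2121 CPM: the other WT_FI libraries had 1697 and 1525 CPM, the KO_FI libraries 1580 to 1697 CPM, and the median without index 1 of WT_FI was 0.06. Within table index, the median KO minus WT was -0.07 for index 0, -0.33 for index 1 and 0.15 for index 2. Myog was also highest in WT_FI index 1, at 225 CPM. The 8 markers of differentiated muscle summed to 432 CPM there, against 214 to 370 CPM in the other libraries of this comparison. Their median log2 CPM there was 2.24, against 2.81 and 2.10 in the other WT_FI libraries and 2.30 to 3.28 in KO_FI. The part of these markers in the synthetase values was not tested. The members with the smallest p were Gars, Kars, Fars2 and Rars2. Gars had 66.6, 66.1 and 70.5 CPM in KO_FI, against 70.8, 100.2 and 67.9 CPM in WT_FI (log2 -0.23, SE 0.17). Kars had 88.8, 98.5 and 101 CPM in KO_FI, against 93.8, 144 and 100.3 CPM in WT_FI (log2 -0.23, SE 0.18). In both the groups overlapped, and the single high library was WT_FI index 1. Fars2, the mitochondrial phenylalanine enzyme, had 17.2, 16.2 and 14.0 CPM in KO_FI, against 17.3, 21.4 and 16.8 CPM in WT_FI (log2 -0.22, SE 0.16). Rars2, the mitochondrial arginine enzyme, had 14.7, 16.0 and 17.6 CPM in KO_FI, against 16.4, 23.2 and 16.3 CPM in WT_FI (log2 -0.21, SE 0.18). Their groups overlapped too; of all members, Hars2 alone had groups apart, higher in KO_FI, where 5.57% of genes were apart and higher, 3.65% apart and lower and 9.22% apart either way.

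In proliferating cells, 0 of 36 members and 0 of 13963 genes (0%) passed in KO_Cul against WT_Cul by edgeR; at an unadjusted p of 0.05 there were 0 members and 112 genes (0.802%), and DESeq2 called 3 genes and 0 members. The cytoplasmic median was 0.07 (-0.12 to 0.24) and the mitochondrial median 0.07, beside 0.02 for all genes, and the intervals of 33 members lay within 1 log2 unit of 0. Groups lay apart for 9 members: Pars2, Cars2, Mars, Yars, Ears2, Cars and Gars were higher in both KO_Cul libraries, and Mars2 and Hars2 lower. Among all genes 11.8% were apart and higher, 11.1% apart and lower and 23.0% either way. Mars2 had 25.2 and 24.5 CPM in KO_Cul, against 34.3 and 27.0 CPM in WT_Cul (log2 -0.30, SE 0.23). Pars2 had 11.6 and 10.8 CPM in KO_Cul, against 9.71 and 9.03 CPM in WT_Cul (log2 0.25, SE 0.26). Cars2 had 22.8 and 22.8 CPM in KO_Cul, against 17.7 and 21.5 CPM in WT_Cul (log2 0.22, SE 0.23). In these 3 the groups lay apart by little, and the estimates were close in size to their SE. Farsa had 140.3 and 108 CPM in KO_Cul, against 113 and 97.5 CPM in WT_Cul (log2 0.24, SE 0.23), and its groups overlapped.

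In differentiation medium, 0 of 36 members and 0 of 14482 genes (0%) passed in KO_Diff against WT_Diff by edgeR; at an unadjusted p of 0.05 there were 0 members and 27 genes (0.186%), and DESeq2 called 0 genes. The cytoplasmic median was -0.05 (-0.31 to 0.33) and the mitochondrial median -0.07, beside -0.01 for all genes. Just 4 of the 36 intervals, from the fit that does not use the table index, lay within 1 log2 unit of 0. Differences of that size were thus not excluded for most members. Groups lay apart for 3 members, Iars2 (higher) and Yars2 and Hars (lower), where 6.39% of genes were apart and higher, 6.85% apart and lower and 13.2% either way. Nars2, the mitochondrial asparagine enzyme, had 16.1 and 42.6 CPM in KO_Diff, against 16.6 and 18.4 CPM in WT_Diff (log2 0.74, SE 0.58), and its value rests on KO_Diff index 1: without it the difference was -0.10. Mars2 had 20.6 and 23.4 CPM in KO_Diff, against 22.2 and 11.2 CPM in WT_Diff (log2 0.40, SE 0.50). Its groups overlapped, as did those of Iars and Qars. Iars had 283 and 425 CPM in KO_Diff, against 285 and 278 CPM in WT_Diff (log2 0.33, SE 0.40). Qars had 135 and 123 CPM in KO_Diff, against 134 and 181 CPM in WT_Diff (log2 -0.29, SE 0.37).

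**Figure D4:**
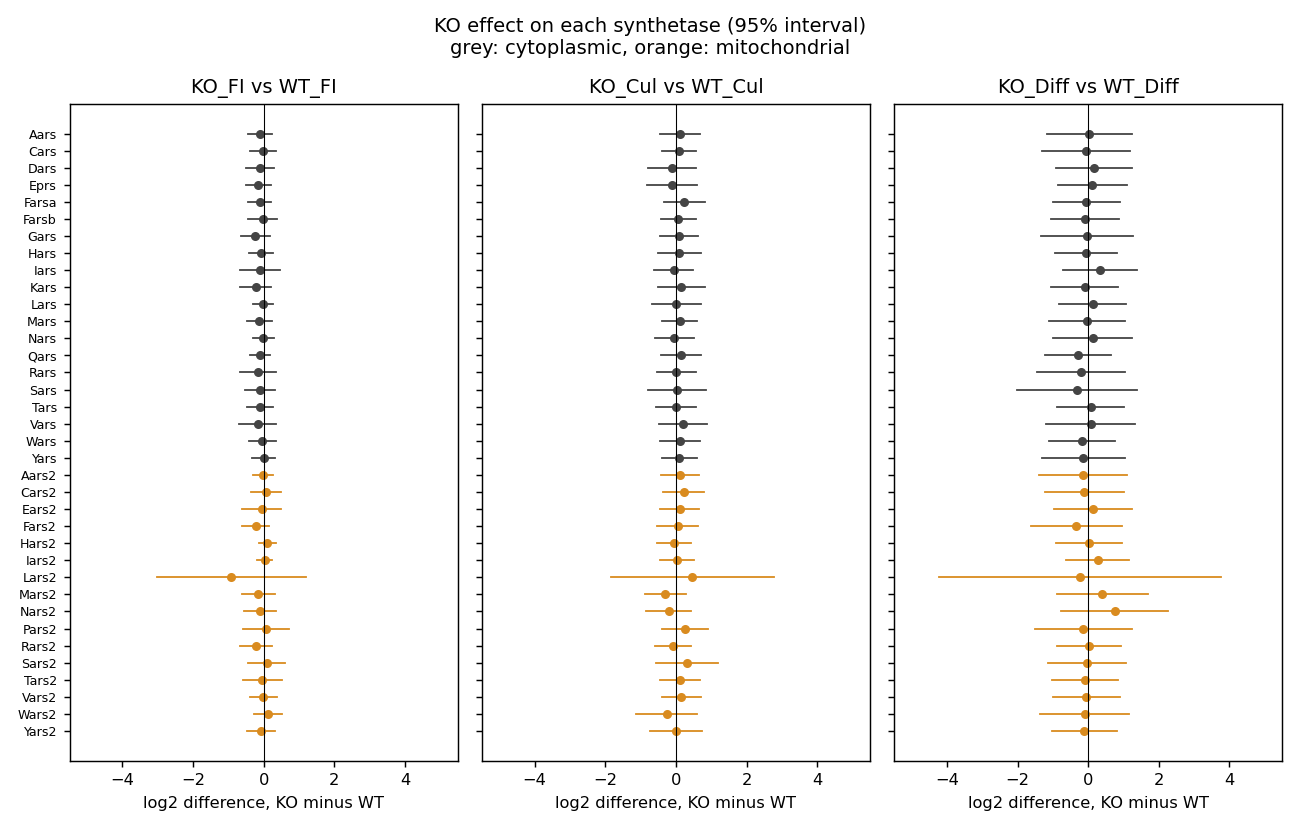
Log2 difference of KO minus WT for each of the 36 genes in FI, Cul and Diff cells, with 95% intervals from edgeR; cytoplasmic genes are grey and mitochondrial genes orange. No gene passed the test; 35, 33 and 4 of the 36 intervals lie within 1 log2 unit of 0 in FI, Cul and Diff.

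Related lists had 0 calls by edgeR in every KO comparison. The 31 amino acid response genes had medians of -0.19 in FI, 0.06 in Cul and -0.06 in Diff, with 2, 0 and 0 genes at an unadjusted p of 0.05. The 2 of 31 in FI are a share near the 4.10% of all genes, and neither passed after adjustment. They were Cth, the enzyme that makes cysteine from cystathionine, and Vldlr, a lipoprotein receptor (log2 -0.44). Cth had 1.86, 1.83 and 1.60 CPM in KO_FI, against 3.03, 4.74 and 2.53 CPM in WT_FI (log2 -0.96, unadjusted p 0.0199); the groups did not overlap, at low levels. In culture the stress response gene Nupr1 had 32.1 and 26.5 CPM in KO_Cul, against 20.7 and 20.8 CPM in WT_Cul (log2 0.50), and in differentiation the glutamine transporter Slc1a5 had 262 and 174 CPM in KO_Diff, against 306 and 349 CPM in WT_Diff (log2 -0.59). Atf4 differed by -0.30 in FI, 0.08 in Cul and -0.33 in Diff, none of which passed. The scaffolds had medians of -0.25, -0.05 and -0.18 in the same order, the mitochondrial translation factors -0.01, 0.03 and -0.07, the elongation genes -0.16, 0.18 and -0.23, and the editing and end-processing genes -0.10, 0.08 and -0.09.

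Libraries of the differentiation table differed by index in both genotypes. Index 1, with the muscle markers given above, had cytoplasmic sums of 6584 CPM in KO_Diff and 6746 CPM in WT_Diff, and index 0 had 5249 CPM in KO_Diff and 5145 CPM in WT_Diff. The median log2 difference of index 1 over index 0 was 0.33 in KO_Diff and 0.40 in WT_Diff for the cytoplasmic enzymes. For the amino acid response genes it was 0.68 in KO_Diff and 0.84 in WT_Diff, and 27 of 31 were above 0 in each. These values are descriptions, and the effect of index was not tested by gene.

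Lars2, the mitochondrial leucine enzyme, was singled out after its values were seen. It had 1089 and 7386 CPM in KO_Diff, against 422 and 9541 CPM in WT_Diff, a 6.78-fold spread within KO_Diff and a 22.6-fold spread within WT_Diff. It had 695 and 1279 CPM in KO_Cul, against 1253 and 181 CPM in WT_Cul, and 84.4, 274 and 219 CPM in KO_FI, against 69.3, 715 and 303 CPM in WT_FI (log2 -0.91, 95% interval -3.01 to 1.19). The groups overlapped in all 3 comparisons. In the table of WT states it had 102 and 70.2 CPM in WT_Cul, against 66.5 and 52.0 CPM in WT_FI, with spreads of 1.45-fold and 1.28-fold. The largest spread of any other member within a group of the 4 tables was 2.75-fold (Sars in WT_Diff). Rmrp, an RNA without a polyA tail, is given beside it, chosen after values were seen. Rmrp had 2.60 and 9.55 CPM in KO_Diff, against 0.330 and 9.21 CPM in WT_Diff, and 0.815 and 2.45 CPM in KO_Cul, against 1.68 and 0.523 CPM in WT_Cul. In each of these 4 groups the library higher in Lars2 was also higher in Rmrp, at low Rmrp levels. Each group has 2 libraries, and the share of all genes in the same order was not computed. In fresh cells Rmrp had 0.567, 0.148 and 0.656 CPM in KO_FI, against 0.158, 13.5 and 4.27 CPM in WT_FI, in the order of Lars2 within WT_FI but not within KO_FI; its part in the Lars2 values was not tested.

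**Figure D5:**
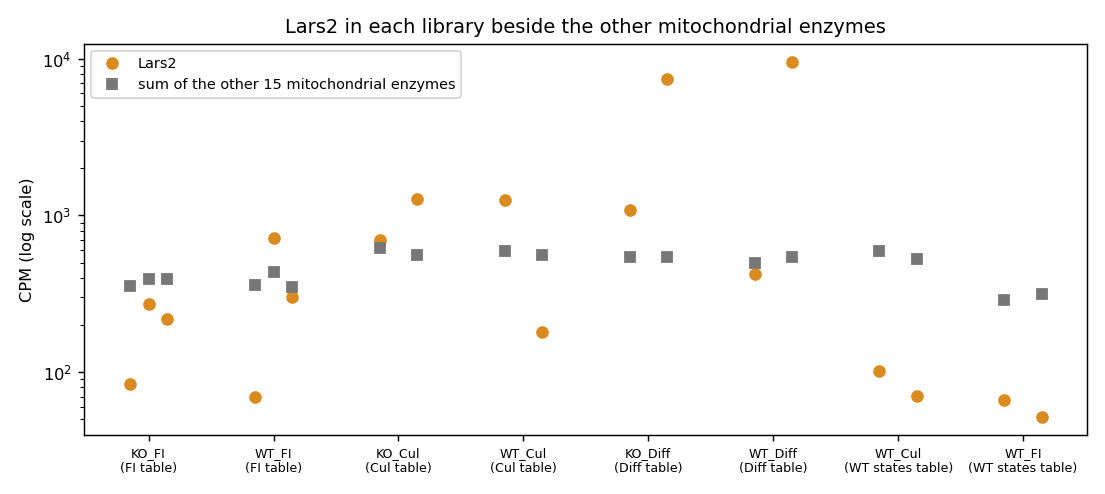
Lars2 CPM (orange circles) and the summed CPM of the other 15 mitochondrial enzymes (grey squares) in each library, on a log axis. The sum stays between 290.4 and 619 CPM, while Lars2 spans 52.0 to 9541 CPM.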

How the data were processed

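Per the file headers, the authors deposited estimated counts of fragments and FPKM values for each gene and library, scaled within each of 4 tables. Per the submitters' processing notes the tools include TopHat, Bowtie, Cuffdiff and SICER and the build is mm9; whether counting used strand is not given in the sources used here, so overlapping genes and near-identical copies cannot be told apart. The tables number libraries by an index that is not tied to the labels' replicates, and their letter A was matched to Cul because the other letters account for FI and Diff. Of the values above 0, 7.23% to 8.18% were not whole (tolerance 0.01) in index 0 of FI and in all WT states libraries, and 1.42% to 2.82% elsewhere; estimated counts were rounded. Genes without status OK throughout a table (22 in FI, 12 in Cul, 19 in Diff, 27 in WT states; no member) were dropped. No libraries of a group were copies (lowest chi-square per degree of freedom 27.8). Columns left unused numbered 0.

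Each table was fitted alone by edgeR 4.0.16 in R 4.3.3 (robust quasi-likelihood F test, TMM, filterByExpr), adjusting by Benjamini-Hochberg across its tested genes, with 0.05 as threshold. All 36 members passed the filter in every table. The SE is the estimate divided by the root of F. Alternatives were DESeq2 1.42.0, DESeq2 size factors in edgeR, no filter, limma 3.58.1 on log2(FPKM + 1), a block by index and leaving out each library; leaving out both index 0 libraries of FI, and Lars2, was chosen after seeing the data. The code was tested on simulated data. Same-index libraries of KO_FI and WT_FI deviated together (correlations 0.866, 0.683 and 0.584), which comes from the data, not the labels. Correlations between libraries of different index are not given here, so these values cannot show that the index pairs libraries. Members and lists were chosen with earlier results of these data known. Library values are given for the 8 members with the smallest p in WT states, the 4 smallest in each KO comparison, Eprs, Gars, Kars, Wars and Wars2, and up to 4 genes of each related list; Yars2, Ears2, Qars, Lars2 and Rmrp were added after their values were seen. Nothing says that libraries came from separate animals, so a p-value reflects the spread among these samples, which may be technical.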

Additional observations from a re-analysis of the deposited data

Results flagged for a closer look

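Hars2, the mitochondrial histidine enzyme, lay apart in opposite directions in FI and Cul: every KO library was above every WT library in fresh cells, and every KO library below every WT library in culture. It had 40.7, 40.4 and 41.1 CPM in KO_FI, against 38.6, 40.0 and 35.3 CPM in WT_FI, with log2 0.1023. In culture the values were 35.1 and 35.7 CPM in KO_Cul, against 38.0 and 35.9 CPM in WT_Cul, with log2 -0.0615. The nearest libraries were close, at 40.4 and 40.0 CPM in FI and 35.7 and 35.9 CPM in Cul. Among all genes tested, 5.57% lay apart and higher in KO_FI, and 11.1% apart and lower in KO_Cul. The share of all genes apart in opposite directions was not computed. Neither difference of Hars2 passed edgeR's test, and the difference between the states was not tested.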

How the results depend on the processing

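In the KO comparisons, 0 members passed under any setting tried, the replicate block by index included. Over all genes the block called 0 in FI, 3 in Cul and 147 in Diff, and DESeq2 117, 3 and 0. Same-index correlations were 0.732 in Cul, 0.787 in Diff and 0.387 in WT states. With 2 libraries in a group, both index pairs must give the same correlation. Each of these is thus 1 value and cannot settle whether the index pairs libraries. In WT_Cul against WT_FI, 23 members and 4200 genes passed, 28 and 6176 with the replicate block, 27 and 5763 with DESeq2, and 1 to 28 members and 1948 to 8301 genes without 1 library.

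Median log2 differences without 1 library ran from -0.19 to 0.058 (cytoplasmic) and -0.11 to 0.067 (mitochondrial) in FI, 0.011 to 0.093 and -0.032 to 0.076 in Cul, -0.28 to 0.17 and -0.089 to 0.11 in Diff, and 2.15 to 2.27 and 0.80 to 1.08 in WT_Cul against WT_FI. In WT states, limma on log2(FPKM + 1) gave 2.11 and 0.87, and leaving Lars2 out gave 1.29 (mitochondrial). Without 1 library, signs turned for Lars2 (-1.39 to 0.043 in FI, -0.34 to 2.43 in Cul, also -0.046 without KO_Cul index 1, and -2.15 to 3.33 in Diff), for Nars2 and Mars2 in Diff (-0.10 to 1.28 and -0.013 to 0.97) and for Wars2 in WT states (-0.0245 to 0.73). In Diff, Lars2 was 0.495 by limma, 0.499 with the block and 0.57 without KO_Diff index 0. A gene value in WT states was classed as the same when it kept direction and side of the threshold. A count of members called was classed as the same when it stayed near the main count. Of these values and counts together, 236 were the same, 34 no longer passed, 24 newly passed, 1 turned sign and 2 counts moved. The cause was not tested. With 2 or 3 libraries in a group, differences inside the 95% intervals were not excluded.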
